A study of Homo sapiens with 30 samples.

Results

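G401 is a human malignant rhabdoid tumor line that has lost SMARCB1, the gene for SNF5, a subunit of the SWI/SNF chromatin remodeler. The 6 PRO-Seq samples described here, of 30 samples in the series, are 3 of G401 cells making EGFP and 3 of cells making OmoMYC. Both constructs came from the inducible lentiviral vector pInducer20 in transduced, G418-selected populations, and both groups received 1 µg/ml doxycycline for 24 h, so drug, vector and SMARCB1 loss were shared. They were chosen as the gene body and promoter-proximal counts of these samples, matched by replicate number, with 1 transcript kept for each of 20367 gene symbols. The 3 PRO-Seq samples making SNF5 entered the fits for the estimate of spread.

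MYC dimerizes with MAX, binds E-boxes such as CACGTG near promoters, and is known for driving ribosome production and growth and for promoting release of paused RNA polymerase II. OmoMYC is a MYC bHLH-zipper fragment with an altered zipper, which dimerizes with MYC and MAX and blocks MYC at chromatin. PRO-Seq maps engaged polymerases by a nuclear run-on: counts just past the start mostly hold paused polymerase, counts in the gene body elongating polymerase, and the pausing index is the ratio of the first to the second.

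Gene body totals ran from 28444943 to 46957634 counts and promoter-proximal totals from 518900 to 3257778. The promoter-proximal window took 1.46% and 1.97% of the counts in replicate 1 of EGFP and OmoMYC, 8.83% and 10.28% in replicate 2, and 5.13% and 4.57% in replicate 3, so promoter-proximal levels differed more between replicates than between constructs. Values below are normalized counts, scaled by size factors from the gene body counts, in the order of replicates 1, 2 and 3, and errors of fold changes are standard errors of the fit. Adjusted p-values are from edgeR's quasi-likelihood test with Benjamini-Hochberg adjustment, with the replicate number as a block. The study describes the replicates as independent experiments. Fewer transcribing cells and fewer polymerases per cell cannot be told apart.

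SMARCB1 gene body counts were 4.34, 1.26 and 4.87 in EGFP and 2.17, 6.33 and 3.22 in OmoMYC, near 0 in all 6 samples. The mesenchymal marker VIM and the epithelial keratin genes KRT8 and KRT18 were transcribed in both groups, and all 3 fell with OmoMYC (log2 fold changes -0.28, -0.31 and -0.31). The mesenchymal markers COL1A1, COL1A2 and COL6A1 were transcribed as well, with EGFP means of 2445, 2693 and 728. Of the mesenchymal list 2 of 10, FN1 and TWIST1, had means under 10 normalized counts. COL5A1 and CD44 were weak as well, at 0.472 and 0.458 counts per kb of gene body in EGFP, against 1350 for VIM. Of the epithelial list 4 of 10 had means under 10, KRT19, CLDN3 and CLDN4 among them. CDH1 had an EGFP mean of 337, but only 3.46 counts per kb of gene body. Of the blood list 7 of 9, the defining PTPRC among them, stayed under 10 normalized counts. Of the neural list 3 of 8 did. TUBB3 and SYT1 had EGFP means of 2677 and 1636, at 205 and only 2.79 counts per kb of gene body. MYC itself had 3836, 4619 and 3239 in EGFP and 5498, 14275 and 4958 in OmoMYC (log2 fold change 0.95 ± 0.22, adjusted p = 0.0374). The groups did not overlap, and replicate 2 of OmoMYC was far above the others. OmoMYC is made from MYC sequence, so reads of the transgene and of the endogenous gene cannot be told apart, and these counts say nothing firm about endogenous MYC. Its promoter-proximal counts, next to the endogenous start, were 229, 539 and 226 in EGFP and 278, 481 and 213 in OmoMYC (log2 fold change 0.00 ± 0.21, adjusted p = 0.995). MAX, the partner of MYC, had 5093, 4540.0 and 4536 in EGFP and 5038, 4546 and 4464 in OmoMYC (log2 fold change -0.01 ± 0.05, adjusted p = 0.901).

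With OmoMYC, gene body polymerase was lower over many genes of ribosome production and translation and over snoRNA host genes, and higher over a set of mostly weakly transcribed genes. Of 15060 genes tested in the gene body, 599 rose (3.98%) and 680 fell (4.52%). Falls were shallow, with a median of 1.28-fold, and 5 fell more than 2-fold. Rises had a median of 1.43-fold, and 118 rose more than 2-fold. Of these 1279 genes, 1278 moved the same way in all 3 pairs, which is no separate check, since the call used these pairs. For 578 of them the EGFP and OmoMYC samples did not overlap, which held for 11.5% of all tested genes. The size of the lists depended on single replicates: 2 genes rose and 0 fell without replicate 1, and likewise without replicate 2, against 2987 and 3765 without replicate 3. An unadjusted p under 0.05 was held by 1437 genes without replicate 1 and 1563 without replicate 2, against 4411 in the full fit. Each such fit has fewer samples and residual degrees of freedom than the full fit. How far this shortened the lists was not tested. With total counts as the scaling, 828 rose and 418 fell, so the balance of rises and falls depended on the scaling.

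**Figure D1:**
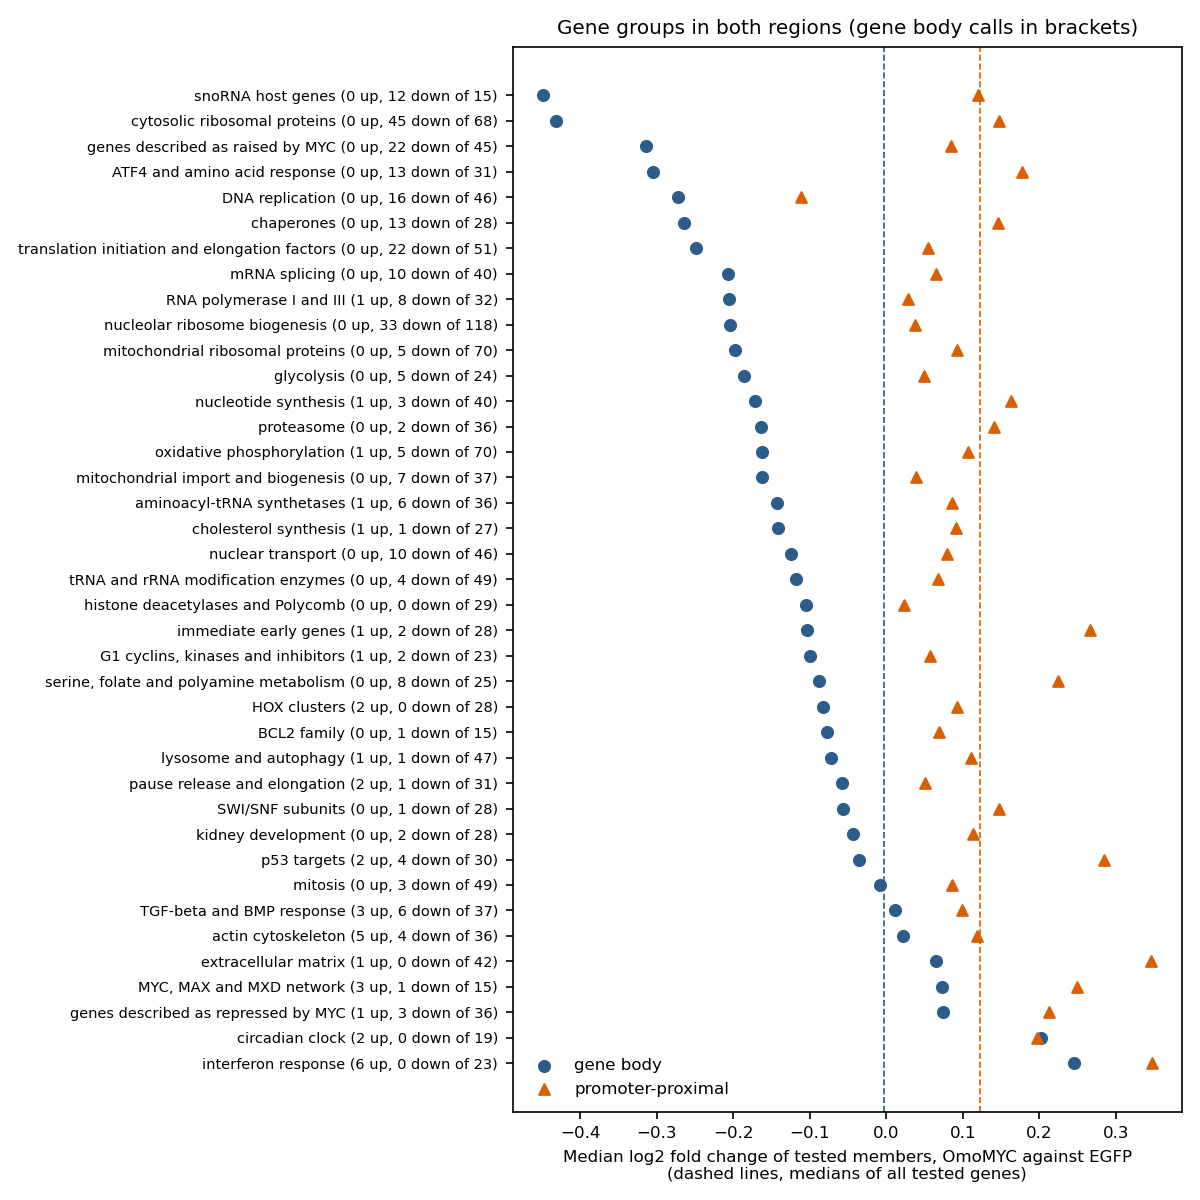
Median log2 fold change, OmoMYC against EGFP, of the tested members of 39 gene groups in the gene body (circles) and the promoter-proximal window (triangles), with gene body calls in brackets and medians of all tested genes as dashed lines. The snoRNA host genes and the cytosolic ribosomal proteins lie lowest in the gene body, at -0.45 and -0.43, while their promoter-proximal medians, 0.12 and 0.15, lie near the median of all genes, 0.12.

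The cytosolic ribosomal proteins, which build both subunits of the ribosome, were lower as a group. Of 68 tested, 45 fell (66.2%) and 0 rose, with a median log2 fold change of -0.43 against -0.00 over all tested genes, and the median was -0.51, -0.62 and -0.17 in pairs 1, 2 and 3. RPL35 (NM_007209, chr9:127620158-127624240), of the large subunit, had 2217, 2223 and 2461 in EGFP and 1365, 1222 and 1819 in OmoMYC normalized gene body counts (log2 fold change -0.66 ± 0.09, adjusted p = 0.0133). All 3 OmoMYC samples lay below all 3 EGFP samples. RPS27A, which encodes a small-subunit protein fused to ubiquitin, had 3414, 5494 and 4189 in EGFP and 2177, 3116 and 3076 in OmoMYC (log2 fold change -0.63 ± 0.08, adjusted p = 0.00935). Here too the groups did not overlap. RPL23 and RPL4 changed by -0.57 ± 0.08 and -0.50 ± 0.07 on the log2 scale. In the promoter-proximal window 0 of 69 tested members passed in either direction, with a median of 0.15. The pausing index rose for 12 of 68 (17.6%, against 1.94% of all genes tested for it).

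Host genes of snoRNAs, which carry the guides for rRNA modification in their introns, fell in 12 of 15 cases (80.0%), with 0 rising. That compares with falls of 4.52% of all tested genes, and the median was -0.45. SNHG15 (NR_003697, chr7:45022627-45026259) had 3853, 4653 and 5027 in EGFP and 2265, 2595 and 3394 in OmoMYC (log2 fold change -0.72 ± 0.08, adjusted p = 0.00693), and SNHG12 changed by -0.56 ± 0.08. Every OmoMYC sample of SNHG15 was below every EGFP sample. SNHG8 fell most of the 15, with 77.1, 167 and 99 in EGFP and 35.8, 83.5 and 52.4 in OmoMYC (adjusted p = 0.0256). Its counted gene body spans only 62 bp, and its samples overlapped between groups. NCL, which encodes the nucleolar protein nucleolin, and GNB2L1, which encodes the ribosomal scaffold RACK1, changed by -0.51 ± 0.09 and -0.43 ± 0.06. The pausing index rose for 7 of the 15 (46.7%, against 1.94% of all genes tested for it).

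Of 118 nucleolar ribosome biogenesis genes, 33 fell and 0 rose, with a median of -0.21. NOLC1 (NM_004741, chr10:103911933-103923627), a chaperone of snoRNPs, had 2912, 3163 and 3328 in EGFP and 1749.6, 1814 and 2424 in OmoMYC (log2 fold change -0.66 ± 0.10, adjusted p = 0.0152). The pre-rRNA processing factors TSR1 and NOP56 changed by -0.56 ± 0.08 and -0.58 ± 0.09, and TCOF1, which promotes rRNA gene transcription, by -0.41 ± 0.06. Of 32 subunits and factors of RNA polymerases I and III, 8 fell and 1 rose. POLR1C, a subunit shared by both polymerases, had 1435, 1226 and 1596 in EGFP and 869, 630.4 and 1226 in OmoMYC (log2 fold change -0.68 ± 0.11, adjusted p = 0.0172), lower in each pair. TWISTNB, which encodes another RNA polymerase I subunit, went the other way, at 789, 874 and 681 in EGFP and 1586, 1605 and 968 in OmoMYC (log2 fold change 0.79 ± 0.11, adjusted p = 0.0137).

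Translation factors fell in 22 of 51 cases with 0 rising, at a median of -0.25. EEF1B2, an exchange factor of elongation factor 1, had 1198, 1629 and 1149.5 in EGFP and 721, 878 and 902 in OmoMYC (log2 fold change -0.65 ± 0.10, adjusted p = 0.0188), and EIF4A3 and EEF1G changed by -0.44 ± 0.06 and -0.39 ± 0.06. Among 36 aminoacyl-tRNA synthetases 6 fell and 1 rose, among 49 tRNA and rRNA modification enzymes 4 fell (8.16%), and among 70 mitochondrial ribosomal proteins 5 fell (7.14%), MRPL17 among them at -0.60 ± 0.11. The last 2 shares lie nearer to the 4.52% of all tested genes that fell. Chaperones fell in 13 of 28 cases, with HSP90AB1 at -0.38 ± 0.07 and HSPA8 at -0.38 ± 0.07. Splicing factors fell in 10 of 40 cases and nuclear transport genes in 10 of 46, the GTPase gene RAN changing by -0.45 ± 0.10.

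Metabolic groups moved less evenly. Of 25 genes of serine, folate and polyamine metabolism 8 fell, among them PSAT1, of serine synthesis, with 5709, 5110.4 and 4694 in EGFP and 3298, 2989.9 and 4154 in OmoMYC (log2 fold change -0.58 ± 0.11, adjusted p = 0.0256), and SRM, which makes spermidine, at -0.57 ± 0.11. The groups did not overlap for PSAT1. ATF4, the regulator of the amino acid response, changed by -0.43 ± 0.07, and 13 of 31 genes of its response fell with 0 rising. In nucleotide synthesis 3 of 40 fell (7.5%) and RRM2B, a p53-responsive ribonucleotide reductase subunit, rose by 0.30 ± 0.06. Glycolysis had 5 falls of 24, oxidative phosphorylation 5 falls (7.14%) and 1 rise of 70, cholesterol synthesis 1 fall (3.7%) and 1 rise of 27, and the proteasome 2 falls (5.56%) of 36. The last 3 shares of falls are near the 4.52% of all tested genes.

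Genes of DNA replication fell in 16 of 46 cases (34.8%) and genes of mitosis in 3 of 49 (6.12%), against 4.52% of all tested genes. E2F2, an activating E2F factor, had 2042, 1674 and 1446 in EGFP and 1089.7, 897 and 1063 in OmoMYC (log2 fold change -0.75 ± 0.10, adjusted p = 0.0122), and MCM7, of the replicative helicase, changed by -0.40 ± 0.07. The E2F2 samples did not overlap between groups. With gene body scaling, DNA replication alone of the 39 groups had a promoter-proximal median below 0, at -0.11. Among 23 G1 regulators 1 rose (4.35%) and 2 fell (8.7%), near the 3.98% and 4.52% of all tested genes. CCND2 and CCND1, both cyclins D, changed by -0.46 ± 0.10 and -0.35 ± 0.08, and RB1, the retinoblastoma gene, by 0.24 ± 0.05.

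Of 45 genes described as raised by MYC, 22 fell and 0 rose, with a median of -0.31. Of 36 described as repressed by MYC, 1 rose (2.78%) and 3 fell (8.33%) in the gene body, with a median of 0.07. The shares of all tested genes there were 3.98% and 4.52%. In the promoter-proximal window 5 of 30 rose (16.7%, against 1.56% of all genes tested there) and 0 fell. At the promoter NDRG1, CEBPA, SPARC and COL5A2 rose by 1.61 ± 0.33, 1.28 ± 0.23, 1.25 ± 0.28 and 1.07 ± 0.25. In the gene body COL5A2, a fibrillar collagen gene, rose by 0.31 ± 0.07, and LTBP2, ITGA6 and DDIT3 changed by -0.56 ± 0.13, -0.44 ± 0.09 and -0.31 ± 0.08. In the network of MYC, MAX and their partners 3 of 15 rose, MYC included, and 1 fell. MXI1, a MAX-binding repressor, and MYCL1, a MYC paralog, rose by 0.32 ± 0.08 and 0.52 ± 0.13, and MXD1, another MAX-binding repressor, changed by -0.45 ± 0.09. The other tested members, MXD3, MXD4, MNT, MGA, MLX, MLXIP, ZBTB17, FBXW7, USP28, ARRDC4 and MAX, lay between -0.15 and 0.15 and did not pass.

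The interferon response had the highest gene body median of the groups, 0.25, with 6 of 23 genes rising (26.1%) and 0 falling. However, its median was 0.45, 0.31 and 0.04 in pairs 1, 2 and 3. It was weakly transcribed, with a median of 10.3 normalized gene body counts per kb in EGFP. All tested genes with 4.95 to 31.6 counts per kb had a median of 0.14, and 9.4% of them rose. OAS3, a sensor of double-stranded RNA, had 84.7, 64.2 and 99 in EGFP and 220.3, 209 and 141 in OmoMYC (log2 fold change 1.16 ± 0.22, adjusted p = 0.0256), and B2M, the light chain of MHC class I, had 544, 526 and 776 in EGFP and 791, 748 and 903 in OmoMYC (log2 fold change 0.42 ± 0.09, adjusted p = 0.0328). OAS3 samples did not overlap between groups, and B2M samples did. Of 19 clock genes 2 rose (10.5%, against 3.98% of all tested genes), NR1D2 by 0.52 ± 0.09 and CRY2 by 0.26 ± 0.06. Actin genes split, with 5 rising (13.9%) and 4 falling (11.1%) of 36, against 4.52% of all tested genes falling. TGF-beta and BMP genes had 3 rising (8.11%) and 6 falling (16.2%) of 37. Of 31 genes of pause release and elongation 2 rose (6.45%) and 1 fell (3.23%), near the shares of all tested genes. Their median was -0.06, with 22 of 31 below 0. The elongation factor genes ELL2 and AFF1 rose by 0.72 ± 0.11 and 0.64 ± 0.10, and SUPT16H fell.

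Of all tested genes 3.98% rose and 4.52% fell. HOX clusters had 2 rises (7.14%) of 28, and kidney development genes 2 falls (7.14%) of 28. Among SWI/SNF subunits 1 of 28 fell (3.57%), BRD9 at -0.31 ± 0.07. In the p53 group 2 rose (6.67%) and 4 fell (13.3%) of 30, with SESN1 at 0.32 ± 0.05 and MDM2 at -0.37 ± 0.07. Immediate early genes had 1 rise (3.57%) and 2 falls (7.14%) of 28, and extracellular matrix 1 rise (2.38%) of 42. Lysosome and autophagy genes had 1 rise and 1 fall (2.13% each) of 47, and the BCL2 family 1 fall (6.67%) of 15. Mitochondrial import had 7 falls (18.9%) of 37, and histone deacetylases and Polycomb 0 of 29. The shares that rest on 1 or 2 genes lie near those of all tested genes.

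The largest rise was IL23R (NM_144701, chr1:67632169-67725650), the interleukin-23 receptor gene, with 59.7, 59.2 and 45.4 in EGFP and 6359, 7217 and 2454 in OmoMYC normalized gene body counts (log2 fold change 6.49 ± 0.21, adjusted p = 2.18e-06, 89.7-fold). It was low in every EGFP sample and high in every OmoMYC sample, with replicate 3 the lowest of each group. IL12RB2 (NM_001559, chr1:67773047-67862583), an interleukin-12 receptor gene that lies downstream on the same strand, had 13, 39 and 29.2 in EGFP and 512, 568 and 289 in OmoMYC (log2 fold change 4.09 ± 0.45, adjusted p = 0.00693). Reads of its gene body cannot be told apart from polymerase that ran on past IL23R. The promoter-proximal counts of IL23R were 2.17, 1.26 and 0.811 in EGFP and 74.9, 108 and 32.2 in OmoMYC (adjusted p = 2.28e-10), and since EGFP samples held next to no reads there, no fold is given. IL23R kept its call without each replicate in turn.

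Other leading rises came from weakly transcribed genes. CDH15, a muscle cadherin gene, had 79.3, 50.4 and 114 in EGFP and 444, 369.6 and 402 in OmoMYC (log2 fold change 2.34 ± 0.23, adjusted p = 0.00486), and ENOX1 had 22.8, 20.1 and 26 in EGFP and 118, 165 and 154 in OmoMYC (log2 fold change 2.63 ± 0.26, adjusted p = 0.00525). Neither overlapped between groups. OXR1, an oxidation resistance gene, had 194, 361 and 304 in EGFP and 1216, 2123 and 668 in OmoMYC (log2 fold change 2.11 ± 0.25, adjusted p = 0.00935), again without overlap. RUNDC3B, REPS2, LOXL4, TRPM6, MAT1A, DOCK8 and UST, the remaining genes of the 12 largest rises, lay between 1.98 and 2.36. In several of them replicate 3 moved least: RUNDC3B had 39.1, 55.4 and 11.4 in EGFP and 288, 335 and 20.1 in OmoMYC.

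The largest falls were near 2-fold. KCNJ16 (NM_170741, chr17:68071426-68131746), an inwardly rectifying potassium channel gene, had 6824, 9049 and 3059.9 in EGFP and 2674, 3808 and 2172 in OmoMYC (log2 fold change -1.03 ± 0.14, adjusted p = 0.0133). It was lower in each pair, as the rule for naming the largest changes required, but replicate 3 of EGFP lay within the OmoMYC range. GRM4, a glutamate receptor gene, had 2613, 2121 and 2389 in EGFP and 1020.2, 1022 and 1721 in OmoMYC (log2 fold change -0.96 ± 0.14, adjusted p = 0.016) and did not overlap. TLR8-AS1, SNHG8, LOC93622, THAP11, FRZB, UBL5, TRPM8, TOMM5, APOD and RAC3 completed the 12, between -0.80 and -1.05. The value of SNHG8 rests on a gene body of 62 bp. THAP11 (NM_020457, chr16:67876213-67878098) lies within the span of CENPT on the opposite strand.

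**Figure D2:**
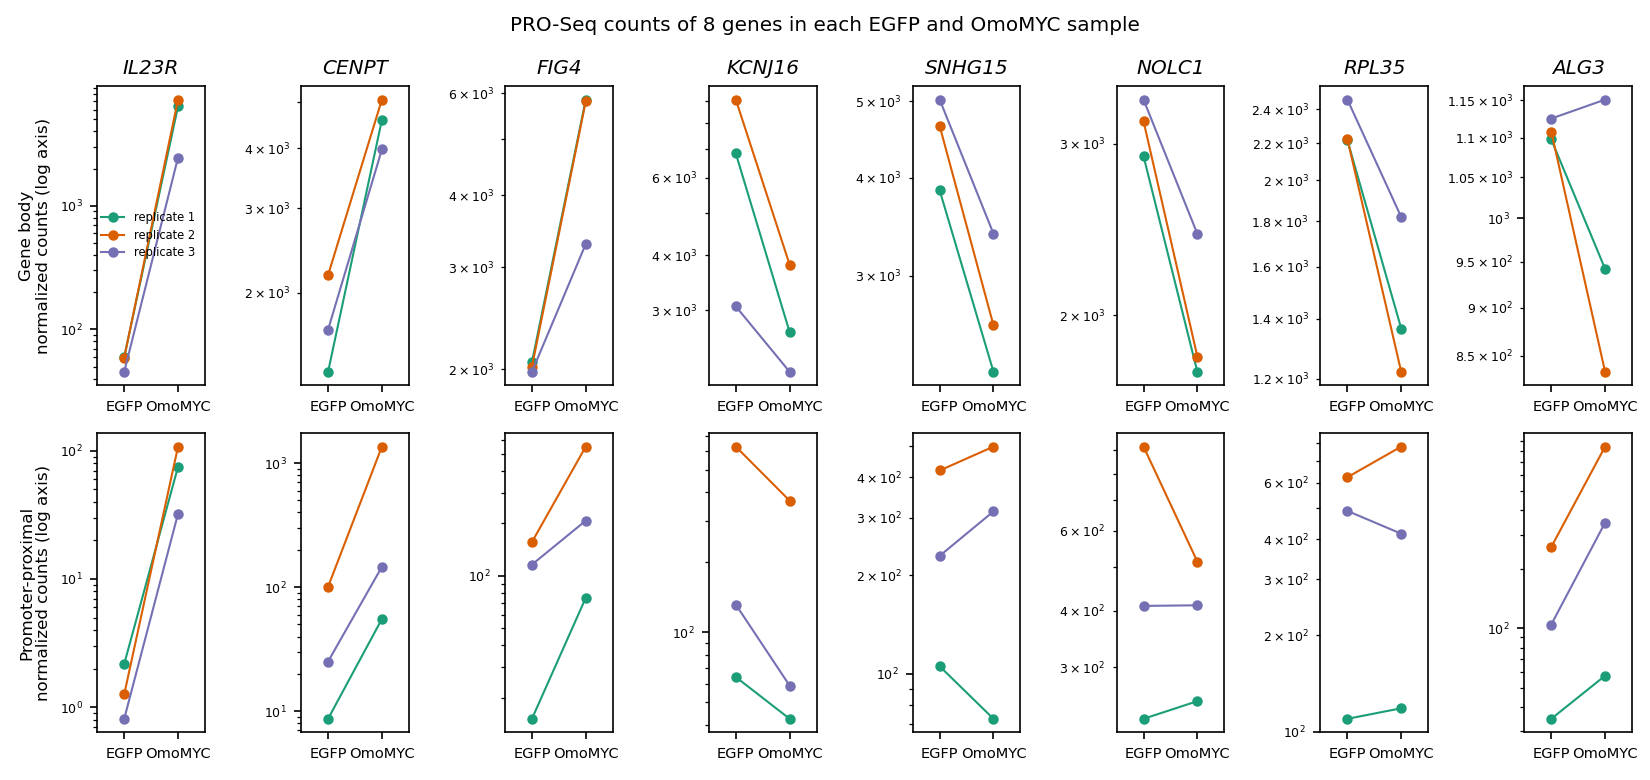
Normalized gene body (top) and promoter-proximal (bottom) counts, each on a log axis of its own, of 8 genes in the EGFP and OmoMYC samples, with lines joining samples of the same replicate number. IL23R and CENPT rose in both regions, SNHG15, NOLC1 and RPL35 were lower in the gene body in all 3 pairs, and ALG3 was higher in the promoter-proximal window in all 3 pairs.

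Falls were most frequent among strongly transcribed genes and rises among weaker ones. Tested genes were split into 5 equal classes by normalized gene body counts per kb. The highest class had 25 rises and 412 falls of 3012 genes, with a median log2 fold change of -0.15, and the lowest 150 rises and 9 falls, with a median of 0.27. Rises were most frequent in the class above the lowest, with 283 rises (9.4%) and 40 falls. In 5 classes of gene body length the shortest had 31 rises and 212 falls and the longest 259 and 82. Level and length moved with the gene groups as well. The highest class of level, where 13.7% of all genes fell, held 67 of the ribosomal protein and 62 of the nucleolar ribosome biogenesis genes. The part of level and length in the group results was not tested.

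MYC binding was taken from MYC ChIP-Seq of EGFP cells, as a peak summit of both samples within 1 kb of the start. Sequences at summits of bound genes whose gene bodies fell are shown because they hold the E-box, in capitals, within 30 bp of the summit of EGFP replicate 2. They are given 5′ to 3′ on the strand of the gene, in GRCh37 coordinates.
SLC16A1 (chr1:113498958-113499018, minus strand): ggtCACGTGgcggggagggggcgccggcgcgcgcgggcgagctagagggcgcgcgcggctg
MAT2A (chr2:85766896-85766956, plus strand): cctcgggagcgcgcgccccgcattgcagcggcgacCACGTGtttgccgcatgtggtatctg
HSP90AB1 (chr6:44215180-44215240, plus strand): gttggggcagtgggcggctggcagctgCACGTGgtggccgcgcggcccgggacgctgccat
NCL (chr2:232328517-232328577, minus strand): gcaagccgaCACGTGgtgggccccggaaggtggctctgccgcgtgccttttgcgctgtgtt
SLC19A1 (chr21:46961705-46961765, minus strand): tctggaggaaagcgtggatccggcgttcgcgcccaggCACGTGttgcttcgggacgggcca
SLC16A1, a lactate transporter gene, changed by -0.37 ± 0.05 in the gene body, MAT2A, which makes S-adenosylmethionine, by -0.49 ± 0.08, and SLC19A1, the folate carrier gene, by -0.36 ± 0.07.

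Of 832 MYC-bound genes tested in the gene body, 161 fell (19.4%) and 8 rose (0.962%), with a median log2 fold change of -0.15 and 664 below 0. Of 14228 other genes, 519 fell (3.65%) and 591 rose (4.15%), with a median of 0.01. Among these others, 3677 had a peak of EGFP replicate 2 only, and 7.67% of them fell, with a median of -0.07. A further 10544 had no peak of either sample, and 2.24% of them fell, with a median of 0.05. Bound genes were more strongly transcribed, with 429 of 832 in the highest class of level. Within that class 28.9% of bound and 11.1% of other genes fell, with medians of -0.22 and -0.14. In the class below it the shares were 14.9% and 4.62%, and in the middle class 2.5% and 1.87%. Among bound genes, split into 4 classes by fold enrichment, the highest had 50 falls of 213 and the lowest 34 of 205, with medians of -0.19 and -0.13. These shares are a description, since genes are not independent replicates.

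**Figure D3:**
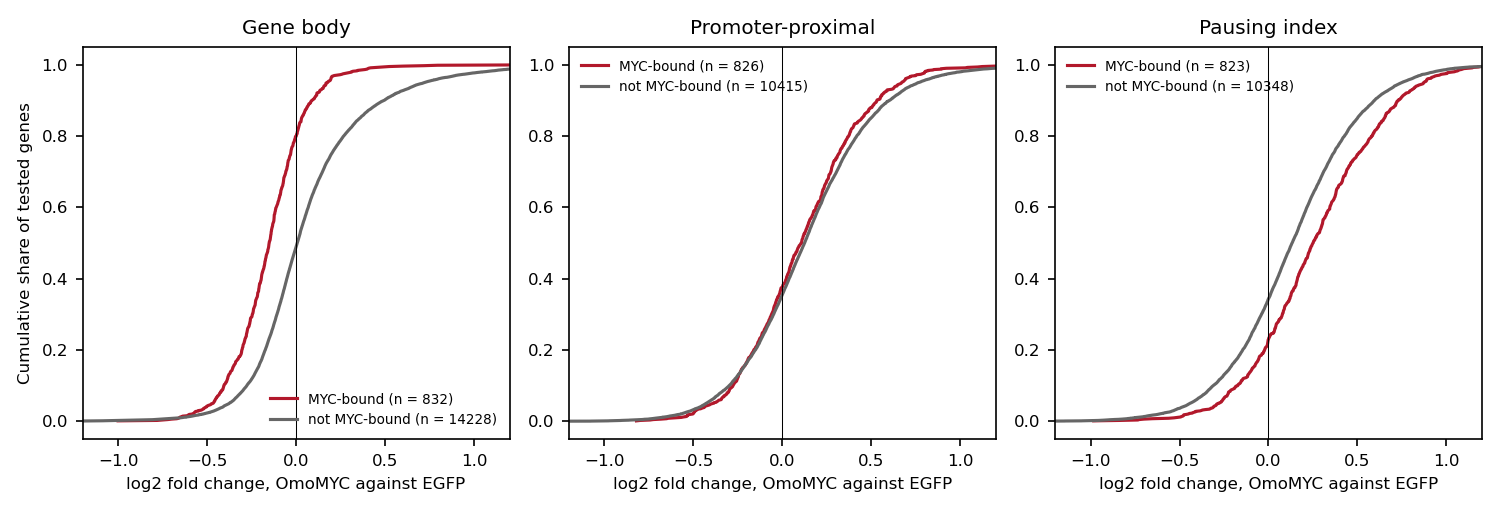
Cumulative share of tested genes by log2 fold change, OmoMYC against EGFP, for MYC-bound genes (red) and all others (grey) in the gene body, the promoter-proximal window and the pausing index. The bound curve lies to the left in the gene body (median -0.15 against 0.01), close to the other in the promoter-proximal window (0.11 against 0.13) and to the right for the pausing index.

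**Figure D4:**
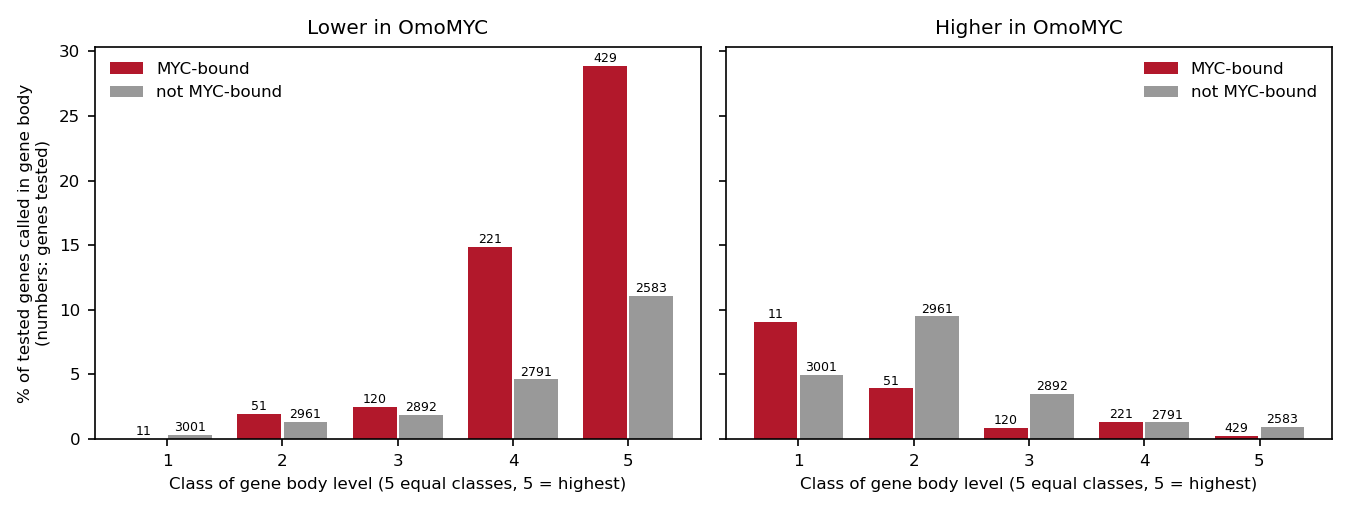
Percent of tested genes that were lower (left) or higher (right) in the gene body with OmoMYC, by class of normalized gene body counts per kb, for MYC-bound genes (red) and others (grey), with the number of genes tested above each bar. In the highest class 28.9% of bound and 11.1% of other genes were lower.

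The letters CACGTG, which read the same on both strands, stood within 100 bp of the start in 20.9% of bound and 5.78% of other tested genes, and in 5.94% of all 20367 starts. Among bound genes, 18 of 174 with the letters there fell (10.3%), against 143 of 658 without (21.7%). Taken around the tallest summit of each bound gene, 426 of 832 windows held them, and 63 of those genes fell (14.8%), against 98 of 406 without (24.1%). The difference between genes with and without the letters was not tested.

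In the promoter-proximal window 175 of 11241 tested genes rose (1.56%) and 18 fell (0.16%). The direction depended on scaling. With size factors from the promoter-proximal counts themselves 117 rose and 108 fell, and the median of all genes moved from 0.12 to -0.03. The pairs also disagreed in level: medians over 7806 genes were 0.36, 0.19 and -0.16 in pairs 1, 2 and 3. Without replicate 2, 3 genes rose, and without replicate 3, 830 rose and 33 fell. Of the 193 called genes, 183 had the same sign without replicate 2 and 191 without replicate 3. That is no separate check, since the calls also used the replicates kept in these fits. EGFP and OmoMYC samples did not overlap for 16 of the 193 called genes, which held for 1.08% of all genes tested there.

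CENPT (NM_025082, chr16:67862060-67881361), which encodes a kinetochore protein and is MYC-bound, had 8.69, 101 and 25.1 in EGFP and 55.4, 1357 and 146 in OmoMYC promoter-proximal counts (log2 fold change 3.17 ± 0.28, adjusted p = 8.62e-10). It was higher in each pair, as the naming rule required, by far most in replicate 2. Its gene body rose with 1368, 2177 and 1675 in EGFP and 4584, 5053 and 3978 in OmoMYC (log2 fold change 1.40 ± 0.10, adjusted p = 0.0013). DLL4, a Notch ligand gene, had 19.5, 122 and 39.7 in EGFP and 79.2, 379.8 and 134 in OmoMYC (log2 fold change 1.78 ± 0.24, adjusted p = 2.83e-05), while its gene body did not pass (log2 fold change -0.23 ± 0.52). FIG4, a phosphoinositide phosphatase gene, rose in both regions, with 2058, 2022 and 1980.2 in EGFP and 5850.0, 5812 and 3293 in OmoMYC in the gene body (log2 fold change 1.26 ± 0.14, adjusted p = 0.00693) and 1.51 ± 0.24 in the promoter-proximal window. ANKRD37, CHST8, NDRG1, NRIP3 and CPEB4 completed the 8 largest rises, between 1.53 and 1.76.

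Of the 18 falls, TUFM, the mitochondrial elongation factor Tu gene, had 84.7, 315 and 224 in EGFP and 47.8, 142 and 86.2 in OmoMYC (log2 fold change -1.14 ± 0.22, adjusted p = 0.00429). It was lower in each pair, as the naming rule required, and its samples overlapped between groups. SHQ1, an assembly factor of snoRNPs, changed by -1.01 ± 0.24 with its gene body at -0.05 ± 0.07. LINC00052, POU2F3, DRG2, MMACHC, PGAM1 and SDF2 lay between -0.92 and -1.15. PGAM1, a glycolytic enzyme gene, fell in the gene body as well, at -0.29 ± 0.06.

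Few genes passed at the promoter (1.56% up and 0.16% down of all tested). Of 639 genes that fell in the gene body and were tested in both regions, 5 fell and 1 rose in the promoter-proximal window. Their median there was -0.00, against 0.12 for genes with no gene body call, and it was -0.35 in the gene body. These levels depend on the scaling, and the differences between the sets were not tested. Of 446 genes that rose in the gene body, 34 rose and 0 fell at the promoter, and their median there was 0.42. MYC-bound genes had 13 rises and 0 falls of 826 tested at the promoter and a median of 0.11 against 0.13 for the others.

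The pausing index rose for 217 of 11171 tested genes (1.94%) and fell for 8 (0.0716%). With each region scaled by its own size factors the split was 123 against 58, and the median of all genes moved from 0.14 to -0.01. Without replicate 2, 0 genes passed in this edgeR test, with 518 at an unadjusted p under 0.05, and without replicate 3, 943 rose and 21 fell. Among the 217, the promoter-proximal count rose for 82 and the gene body count fell for 57, both for 1. MYC-bound genes made up 53 of the 217 and 0 of the 8. The index rose for 6.44% of the 823 bound genes tested and for 1.58% of the 10348 others, with medians of 0.25 and 0.13. Within the highest class of level the shares were 9.32% and 3.01%.

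ALG3 (NM_001006941, chr3:183960117-183967313), an ER mannosyltransferase gene and MYC-bound, had 34.7, 259 and 105 in EGFP and 57.5, 839 and 345 in OmoMYC promoter-proximal counts and 1098, 1108 and 1125 in EGFP and 942, 834 and 1151 in OmoMYC gene body counts, a pausing index change of 1.68 ± 0.24 (adjusted p = 2.33e-05). It was higher at the promoter in each pair. CEBPA, a differentiation factor gene that MYC is described to repress, had 296, 447 and 364 in EGFP and 525, 1462 and 948 in OmoMYC promoter-proximal counts, without overlap, and a pausing index change of 1.39 ± 0.23 (adjusted p = 0.000439). Its gene body did not pass, at -0.07 ± 0.12. CENPT, ITPR1, LIPG and CLSTN2 were the other leading rises, between 1.40 and 1.86. Falls of the index were SHQ1, DRG2, MYC, POC1A, SDF2 and UBXN2B among the 6 largest, between -0.84 and -0.95, and that of MYC rests on gene body reads that the transgene may share.

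**Figure D5:**
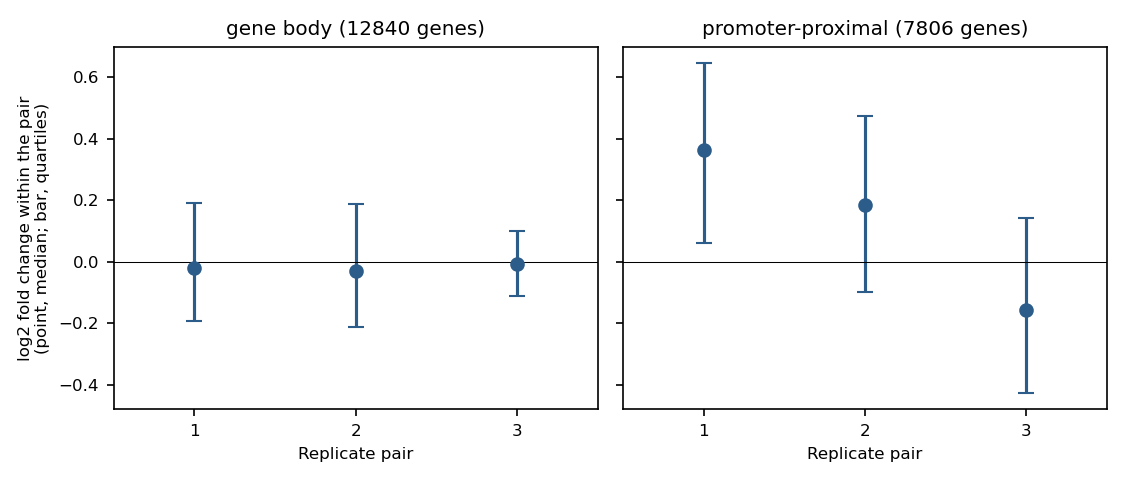
Median (point) and quartiles (bars) of the log2 fold change of OmoMYC against EGFP within each replicate pair, over 12840 genes in the gene body and 7806 in the promoter-proximal window with a mean of at least 50 normalized counts. Gene body medians sat near 0, where the scaling by gene body counts puts them, so a shift shared by all genes would not show. The spread was narrowest in pair 3 in the gene body, and promoter-proximal medians went from 0.36 in pair 1 to -0.16 in pair 3.

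Pair 3 held the smallest gene body changes. The distance between quartiles was 0.39, 0.4 and 0.21 in pairs 1, 2 and 3. Across 12840 genes the changes of pairs 1 and 2 had a Pearson r of 0.81, and those of pair 3 an r of 0.45 with pair 1 and 0.44 with pair 2. These are descriptions across genes that share libraries within a pair. The amount of OmoMYC made in each replicate was not measured in these counts.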

How the data were processed

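PRO-Seq counts of 3 EGFP and 3 OmoMYC samples of G401 cells were compared, and 3 SNF5 samples entered the fits. The authors trimmed reads with cutadapt, reverse complemented them, used Bowtie2 for alignment to hg19, removed reads on rRNA loci or of low mapping quality, and counted them with NRSA. The deposited table of 20582 transcripts gives raw counts in 2 regions, the promoter-proximal window with most reads and the gene body, which starts 1000 bp past the start, and a gene body signal in reads per bp, used for gene body length. The deposited MYC peak lists, called in each sample with MACS2, give a fold ratio over background and −log10 p and q. EGFP lists held 940 and 5396 peaks, so bound genes were limited by the first sample.

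Genes with a mean of at least 10 counts entered edgeR 4.0.16 (R 4.3.3), with RLE size factors from gene body counts for both regions and the replicate number as a block, leaving 4 residual degrees of freedom. For the pausing index, both regions were fitted together with a term per sample, and the region-by-construct term was tested. Same-numbered EGFP and OmoMYC samples deviated together (gene body correlations 0.913 to 0.936, other numbers -0.758 to 0.247), so the replicate numbers were taken to pair the samples. The authors state a batch correction without naming the batch. Scripts were tested on simulated data. Alternatives were DESeq2 1.42.0, other scalings and filters, the 6 samples alone, no block and each replicate left out. Members, 39 gene lists and 5 marker lists were chosen with earlier results of these data known. Of 1652 list entries, 1603 were in the table. Genes were named by a fixed rule: the largest rises and falls with at least 50 normalized counts that moved alike in all 3 pairs, the list members with the smallest p, and the MYC network. Per-pair values had 0.5 added. ATAC-Seq, IgG and other ChIP-Seq files were not used here.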

Additional observations from a re-analysis of the deposited data

How the results depend on the processing

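Leaving out the block for the replicate pairing left 1 gene higher and 0 lower in the gene body (925 at an unadjusted p under 0.05), and 0 in either direction at the promoter (5 unadjusted) and for the pausing index (0 unadjusted), since differences between replicates then entered the spread. In the gene body, DESeq2 called 1001 up and 1107 down, the 6 samples alone 949 and 1048, and total count scaling 828 and 418. Leaving out 1 replicate gave 2 to 2987 up and 0 to 3765 down. At the promoter, no filter gave 269 up, the 6 samples alone 11 down, own scaling 108 down, and leaving out 1 replicate 3 to 830 up and 0 to 52 down. For the pausing index, DESeq2 called 68 up and 0 down, the 6 samples alone 127 and 5, own scaling 123 and 58, no filter 14 down, and leaving out 1 replicate 0 to 943 up and 0 to 25 down. The cause of these shifts was not tested. Medians of MYC-bound genes moved by less than the spread between pairs under every alternative, including a summit of EGFP replicate 2 alone and a summit within 500 bp. The promoter-proximal window held the fewest counts in replicate 1, 518900 and 672874, which limits precision there.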
